A study of Drosophila melanogaster with 3 samples.

Results

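DIP-epsilon and the 5 Dpr genes whose proteins bind it, dpr13, dpr14, dpr18, dpr19 and dpr20, were followed in single visual projection neurons of the developing Drosophila optic lobe. They were chosen by name, as a DIP of the fly and the Dprs of its binding group, and they are 6 of the 17824 genes in the count tables. Single cells were sequenced at 48, 72 and 96 h after puparium formation (APF), with 1 library per time point, and were annotated by the study as LPLC2, LPLC1 or LC4. A library pooled crosses of split-GAL4 driver lines with strains of the Drosophila Genetic Reference Panel (DGRP), so that the cross is the biological replicate. The deposited annotation holds 2910 LPLC2 cells, 1554 LPLC1 cells and 1210 LC4 cells, and a further 329 cells labelled X that belong to none of these types.

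LPLC2 neurons carried R19G02-p65.AD and R75G12-GAL4.DBD, LPLC1 neurons carried R64G09-p65.AD and R37H04-GAL4.DBD, and LC4 neurons carried R47H03-p65.AD and 72E01-GAL4.DBD. All of them expressed the nuclear reporter UAS-His2A-GFP, by which the cells were sorted, and all carried the third chromosome of a DGRP strain. The strains were 399, 535, 555, 730, 799 and 805 at 48 h APF, with 320 in place of 555 at 72 and 96 h APF. For LC4 at 72 and 96 h APF only 399, 535, 799 and 805 were used, which gives 6 crosses for each type and stage except these, with 4. Males and females of a cross were pooled, and strains 399, 535, 555 and 320 make up the group that the study calls early, whose animals were the older ones at dissection, with 730, 799 and 805 as its late group. Cells of a type are marked by the activity of a driver and not by their position, and a library holds 1 stage only, so that stage and library cannot be told apart.

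Dpr proteins (named for defective proboscis extension response) and DIPs (Dpr-interacting proteins) are cell-surface proteins of the immunoglobulin superfamily. A Dpr on one neuron binds a DIP on another, and pairs of them act in the matching of synaptic partners in the fly visual system and at the neuromuscular junction. DIP-epsilon shares its Dpr partners with DIP-zeta, the other DIP of this binding group. LPLC2, LPLC1 and LC4 have dendrites in the optic lobe and axons in optic glomeruli of the central brain, and LPLC2 and LC4 synapse there onto the giant fibre, a descending neuron for fast escape.

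In the annotation of the Release 6 assembly, DIP-epsilon (FBgn0259714) lies on chromosome 2L between 6377771 and 6411326 on the minus strand. On the same arm, dpr19 (FBgn0032233) lies between 10376168 and 10379905 on the plus strand. The X chromosome carries dpr14 (FBgn0029974, 7903704 to 7908286, minus strand) and dpr18 (FBgn0030723, 16063738 to 16070304, plus strand), 2R carries dpr13 (FBgn0034286, 17975122 to 18007902, minus strand), and 3L carries dpr20 (FBgn0035170, 852720 to 857248, minus strand). Of the 6 genes, dpr20 is therefore the member that lies on the chromosome that differed between the strains. DIP-epsilon overlaps CG42369, Nepl5 and Nepl6, and dpr13 overlaps lncRNA:CR44419, but no exon of a neighbour on the same strand overlaps an exon of a member.

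Expression is given as unique molecular identifiers (UMIs) of a gene per 10000 UMIs of all genes (TP10K), summed over the cells of a cross, as mean ± SD over crosses. Counts came from the 3′ ends of transcripts and were not scaled by length. The libraries held 50475870, 53123858 and 18900544 UMIs in annotated cells at 48, 72 and 96 h APF, and the median per cell of a type lay between 16775 and 29763.5 UMIs. Of the annotated cells, 2, 1 and 5 barcodes were shared between the libraries of 48 and 72, 48 and 96, and 72 and 96 h APF. The markers of the types matched the labels in part. Averaged over crosses, kn, lov and Lim3 reached 1.13 to 11.5 TP10K in LC4 and at most 0.0360 TP10K in LPLC2 and LPLC1. Lim1 and Sox102F lay between 3.76 and 9.19 TP10K in LPLC2 and LPLC1 and at most at 0.111 TP10K in LC4. Of the LPLC1 markers, br was also high in LC4, with 40.6 to 49.2 TP10K in LPLC1 and 23.7 to 32.8 TP10K in LC4, and tup lay at 1.18 to 2.07 TP10K in LPLC1 against 0.451 to 0.525 TP10K in LC4. Markers of glia (repo, alrm, wrapper and moody) stayed at or below 0.103 TP10K in every type and stage, X included, whereas ninaE of photoreceptors reached 2.55 and 3.29 TP10K in X cells at 72 and 96 h APF, against at most 0.152 TP10K in the 3 named types.

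**Figure D1:**
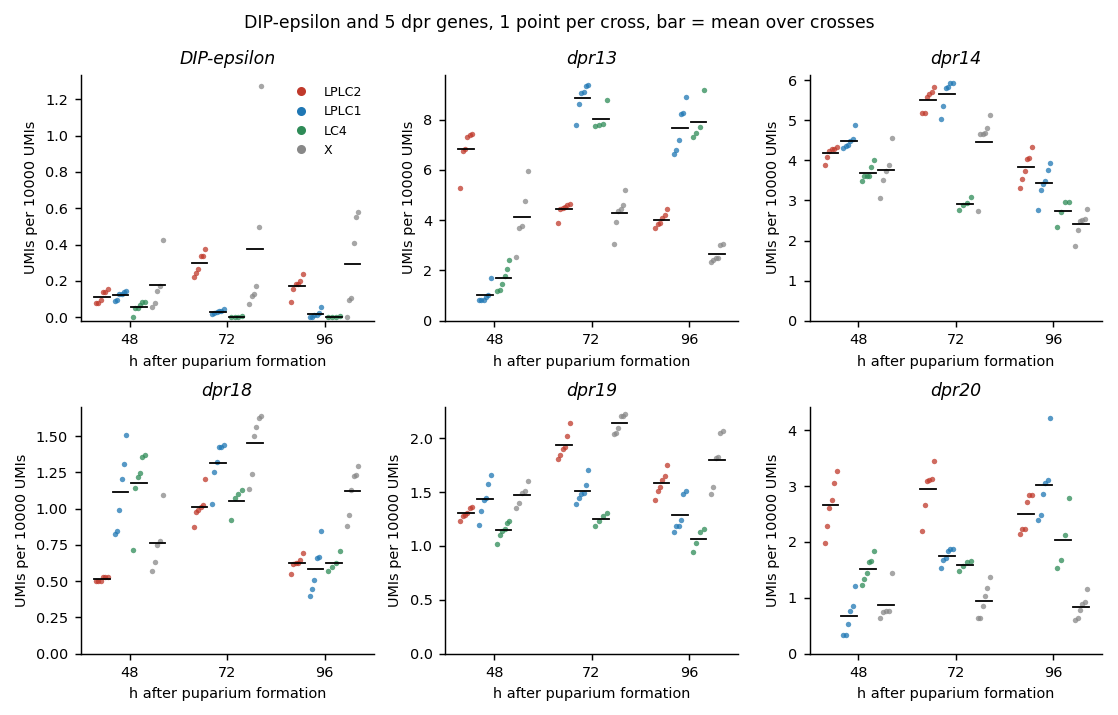
Levels of the 6 genes in UMIs per 10000 UMIs (y axes, linear) against hours after puparium formation. Each point is a cross and each bar the mean over crosses, with LPLC2 in red, LPLC1 in blue, LC4 in green and X cells in grey. The dpr13 panel shows LPLC2 above LPLC1 and LC4 at 48 h and below both at 72 and 96 h, and the DIP-epsilon panel shows LPLC2 above LPLC1 and LC4 at 72 and 96 h.

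DIP-epsilon, the DIP of the group, was scarce in all 3 types at 48 h APF, and from 72 h APF on it was higher in LPLC2 than in LPLC1 and LC4. In LPLC2 at 48 h APF the crosses with strains 399, 535, 555, 730, 799 and 805 had 0.140, 0.153, 0.137, 0.0777, 0.0950 and 0.0767 TP10K. In LPLC1 at 48 h APF the same strains gave 0.145, 0.0887, 0.0917, 0.126, 0.141 and 0.128 TP10K. In LC4 they gave 0, 0.0510, 0.0853, 0.0825, 0.0484 and 0.0683 TP10K, the 0 coming from a cross with 14 cells. The values of LPLC2 and LPLC1 overlapped fully at this stage, with means of 0.113 ± 0.0340 TP10K in LPLC2, 0.120 ± 0.0242 TP10K in LPLC1 and 0.0559 ± 0.0314 TP10K in LC4 (SD, n = 6 each).

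By 72 h APF the LPLC2 crosses with strains 320, 399, 535, 730, 799 and 805 had 0.339, 0.219, 0.241, 0.337, 0.377 and 0.266 TP10K of DIP-epsilon. The highest LPLC1 cross reached 0.0425 TP10K and the highest LC4 cross 0.00511 TP10K, so that LPLC2 no longer overlapped with either type. At 96 h APF the range was 0.0821 to 0.238 TP10K in LPLC2, 0 to 0.0530 TP10K in LPLC1 and 0 to 0.00763 TP10K in LC4, again without overlap of LPLC2 with the others. Counting the cells instead, 15.3%, 38.1% and 20.7% of LPLC2 cells had at least 1 DIP-epsilon UMI at 48, 72 and 96 h APF, against 18.8%, 5.26% and 2.75% of LPLC1 cells and 10.4%, 0.662% and 0.452% of LC4 cells. With every cell thinned to 10000 UMIs and shallower cells left out, the shares were 10.0%, 22.8% and 15.5% in LPLC2 and 8.50%, 1.95% and 1.06% in LPLC1. The thinned share in LC4 was 5.22% at 48 h APF, followed by 0 of 540 cells at 72 h APF and by 0 of 186 cells at 96 h APF, which allows shares of cells with a UMI of up to 0.556% and 1.61% and sets no limit on cells that express the gene.

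The level of free RNA was read from transcription factor genes of the other types. Levels were set against the level over all annotated cells of the library, here called the library level. Barcodes without annotation did not enter it. In LPLC2 and LPLC1 cells kn, a marker of LC4, lay at 0.362% to 1.80% of its library level, and Lim1 in LC4 cells at 0.669% to 1.45%. DIP-epsilon in LC4 lay at 1.71% of its library level at 72 h APF (4 UMIs in 604 cells) and at 1.69% at 96 h APF (1 UMI in 221 cells), which is near that background. In LPLC1 it lay at 20.2% (39 UMIs) and 12.4% (6 UMIs) of the library level. The photoreceptor gene ninaE, however, lay at 25.1%, 18.5% and 20.4% of the library level in LPLC2, LPLC1 and LC4 at 72 h APF and at 7.55%, 7.40% and 17.1% at 96 h APF. DIP-zeta in LPLC1 lay at 15.1% at 72 h APF and had 0 UMIs at 96 h APF. The values of DIP-epsilon in LPLC1 are thus above those of kn at both stages. At 72 h APF the value is near those of ninaE and DIP-zeta, and at 96 h APF, from 6 UMIs, it is above both. The part of free RNA in the LPLC1 values was not tested.

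From the pooled UMIs, DIP-epsilon was 10.9-fold higher in LPLC2 than in LPLC1 at 72 h APF (95% interval 7.89 to 15.5, counting error only) and 11.6-fold higher at 96 h APF (5.19 to 32.1). Over crosses, the log2 fold changes of LPLC2 over LPLC1 at 48, 72 and 96 h APF were -0.07 (SE 0.20), 3.33 (SE 0.25) and 3.48 (SE 0.47), with Benjamini-Hochberg adjusted p-values from edgeR's quasi-likelihood test of 0.829, 9.62e-17 and 2.96e-08. The sign at 48 h APF depended on the age group: with the early crosses alone the log2 fold change was 0.42 and did not pass, and with the late crosses alone it was -0.69 and passed. Against LC4, LPLC2 was higher at every stage by the same test, by 0.86 (SE 0.26, adjusted p = 0.0049) on the log2 scale at 48 h APF, 6.62 (SE 0.38, adjusted p = 4.66e-21) at 72 h APF and 5.95 (SE 0.66, adjusted p = 5.21e-11) at 96 h APF. The difference at 48 h APF fell to 0.24 and was lost in the late crosses alone. LPLC1 exceeded LC4 by 0.93 (SE 0.27, adjusted p = 0.00531) at 48 h APF, a call that was lost without strain 799 (0.80, adjusted p = 0.0542), and by 3.30 (SE 0.59, adjusted p = 5.8e-06) at 72 h APF. LC4 had 4 UMIs of DIP-epsilon at 72 h APF and 1 at 96 h APF, so that the sizes of its differences there are poorly known. By counting error alone, the 95% interval of LPLC2 over LC4 was 50.1- to 474-fold at 72 h APF and 14.9- to 3368-fold at 96 h APF. That of LPLC1 over LC4 at 72 h APF was 4.26- to 45.5-fold.

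Over time, DIP-epsilon rose in LPLC2 and fell in LPLC1 and LC4 between 48 and 72 h APF. The log2 fold change of 72 over 48 h APF was 1.46 (SE 0.18, edgeR adjusted p = 2.11e-10) in LPLC2, -1.94 (SE 0.28, adjusted p = 4.67e-08) in LPLC1 and -4.30 (SE 0.54, adjusted p = 1.57e-09) in LC4. The value for LC4 rests on 53 UMIs at 48 h APF and 4 at 72 h APF, so that its size is poorly known. The difference between LPLC2 and LPLC1 in this change was 3.40 on the log2 scale (SE 0.33, adjusted p = 7.81e-12). A factor that scales a gene alike in all types of a library drops out of this contrast. Free RNA, which adds UMIs to cells, does not drop out, and its part was not tested. Between 72 and 96 h APF DIP-epsilon fell in LPLC2 by 0.90 on the log2 scale (SE 0.20, adjusted p = 0.000123). The counts in LPLC1 (6 UMIs) and LC4 (1 UMI) at 96 h APF were too few to read a change.

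Pooled over crosses, DIP-epsilon in X cells was at 0.184, 0.379 and 0.351 TP10K at 48, 72 and 96 h APF. The pooled level in LPLC2 was lower at each stage, with 0.111, 0.303 and 0.180 TP10K. In X cells most DIP-epsilon UMIs at 72 and 96 h APF, though not at 48 h APF, came from a few cells. Cells with at least 5 UMIs of DIP-epsilon numbered 1 of 78, 5 of 125 and 7 of 126 at 48, 72 and 96 h APF, and they held 23.3%, 76.0% and 71.4% of the DIP-epsilon UMIs of X cells. In LPLC2 such cells numbered 0 of 1442, 6 of 994 and 1 of 474, with 5.24% and 4.32% of the UMIs at 72 and 96 h APF, and in LPLC1 and LC4 there was none. The highest X value in a cell was 15.2 TP10K, against 3.47 TP10K in LPLC2. The X values of the crosses were accordingly uneven, with 1.27 TP10K for strain 320 at 72 h APF against 0.0700 to 0.494 TP10K in the other crosses.

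DIP-zeta, the other DIP that binds these Dprs, was close to absent from the 3 named types and present in X. Cells with at least 5 UMIs of DIP-zeta numbered 11, 19 and 18 among X cells at 48, 72 and 96 h APF and held 93.1%, 94.2% and 94.5% of its UMIs there, and 0, 2 and 4 X cells had at least 5 UMIs of both DIPs. The level of DIP-zeta was at most 0.0165 ± 0.00936 TP10K in LPLC2, 0.0141 ± 0.0118 TP10K in LPLC1 and 0.00960 ± 0.0132 TP10K in LC4. At 96 h APF it had 0 UMIs in 474 LPLC2 cells and 0 in 218 LPLC1 cells, which allows shares of cells with a UMI of up to 0.633% and 1.38%.

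The Dpr genes were far more abundant than DIP-epsilon, and dpr13 had the widest range among them. In the youngest library dpr13 stood at 5.29, 7.39, 6.82, 7.29, 6.74 and 7.41 TP10K in LPLC2 crosses with strains 399, 535, 555, 730, 799 and 805. The same strains gave 0.942, 1.03, 1.70, 0.817, 0.829 and 0.831 TP10K in LPLC1 and 2.41, 1.78, 2.05, 1.22, 1.46 and 1.17 TP10K in LC4. All LPLC2 crosses were above all others, and LPLC1 overlapped with LC4 only through strain 555.

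The order was turned round at 72 h APF. The LPLC2 crosses with strains 320, 399, 535, 730, 799 and 805 had 4.61, 4.51, 4.46, 4.48, 3.90 and 4.65 TP10K of dpr13, and the same strains had 9.36, 9.04, 9.34, 9.10, 8.61 and 7.79 TP10K in LPLC1. LC4 crosses with strains 399, 535, 799 and 805 had 8.78, 7.83, 7.74 and 7.78 TP10K. At 96 h APF the means were 4.02 ± 0.279 TP10K in LPLC2, 7.67 ± 0.924 TP10K in LPLC1 and 7.91 ± 0.867 TP10K in LC4, and every LPLC2 cross again lay below every other cross.

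The log2 fold change of dpr13 in LPLC2 over LPLC1 was 2.74 (SE 0.14, edgeR adjusted p = 2.26e-23) at 48 h APF, -1.07 (SE 0.13, adjusted p = 6.7e-10) at 72 h APF and -0.91 (SE 0.13, adjusted p = 1.82e-07) at 96 h APF. Over LC4 it was 2.05 (SE 0.14, adjusted p = 3.85e-18), -0.93 (SE 0.14, adjusted p = 8.81e-08) and -1.09 (SE 0.14, adjusted p = 4.8e-09). LPLC1 and LC4 differed at 48 h APF, by -0.69 (SE 0.15, adjusted p = 0.000125), and not detectably at 72 h APF (0.13, SE 0.14) or 96 h APF (-0.18, SE 0.14). The change of sign held within each age group, with 2.38 at 48 h APF and -1.07 at 72 h APF for LPLC2 over LPLC1 in the early crosses, and 3.13 and -1.0 in the late crosses.

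dpr13 moved in opposite directions over time in LPLC2 and in the other types. Between 48 and 72 h APF dpr13 fell by 0.56 on the log2 scale in LPLC2 (SE 0.13, adjusted p = 8.5e-05) and rose by 3.24 in LPLC1 (SE 0.14, adjusted p = 2.74e-25) and by 2.42 in LC4 (SE 0.15, adjusted p = 1.51e-19). The change in LPLC2 differed from that in LPLC1 by -3.80 (SE 0.19, adjusted p = 2.73e-22) and from that in LC4 by -2.98 (SE 0.20, adjusted p = 9.95e-18), and the rise in LPLC1 exceeded that in LC4 by 0.82 (SE 0.20, adjusted p = 0.00179). From 72 to 96 h APF dpr13 fell in LPLC1 by 0.44 (SE 0.13, adjusted p = 0.00387), which was lost without strain 320 (-0.33, adjusted p = 0.054) and in the late crosses alone (-0.24). The change in LPLC2 was -0.29 (SE 0.13, adjusted p = 0.0548), and it passed with the DGRP strain as a block (-0.29, adjusted p = 0.024).

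The shift was one of nearly all cells in LPLC1 and LC4. With cells thinned to 10000 UMIs, 47.6% of LPLC1 cells had no dpr13 UMI at 48 h APF and none had 10 or more, whereas at 72 h APF 0.178% had none and 37.7% had 10 or more. In LC4 25.2% of cells had no UMI at 48 h APF, whereas by 72 h APF 0.926% had none and 29.8% had 10 or more. In LPLC2 the cells with 10 or more were 25.7%, 5.88% and 6.36% of cells at 48, 72 and 96 h APF, and those without a UMI 14.3%, 8.58% and 15.5%. Of X cells, 16.2%, 7.53% and 5.21% had 10 or more at the 3 stages.

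**Figure D2:**
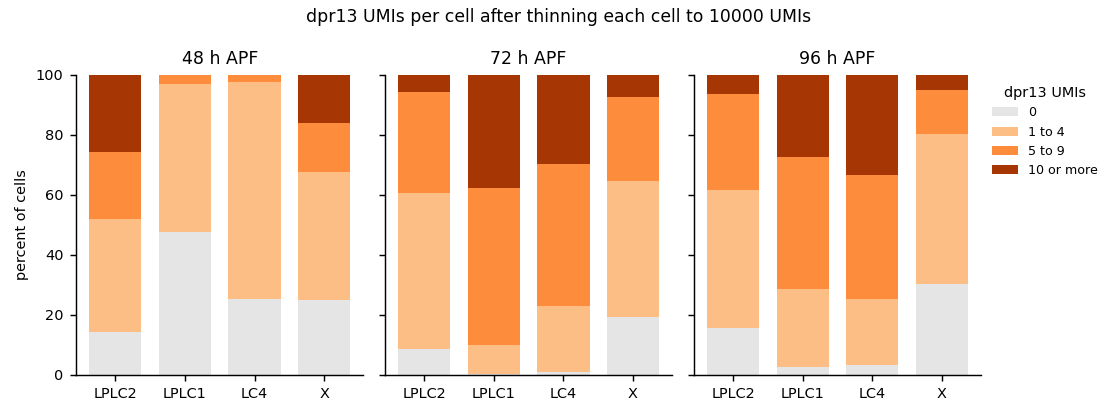
Percent of cells (y axis) by their number of dpr13 UMIs after thinning each cell to 10000 UMIs, for LPLC2, LPLC1, LC4 and X at 3 stages. Colours from grey to dark brown stand for 0, 1 to 4, 5 to 9 and 10 or more UMIs. At 48 h the darkest class is present in LPLC2 (25.7%) and X (16.2%) only, and at 72 h it is widest in LPLC1 (37.7%).

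dpr14 did not pass the test between LPLC2 and LPLC1 at any stage and was lower in LC4, by the most at 72 h APF. Its means were 4.18 ± 0.170, 5.51 ± 0.270 and 3.83 ± 0.374 TP10K in LPLC2 at 48, 72 and 96 h APF, and 4.49 ± 0.207, 5.64 ± 0.371 and 3.44 ± 0.409 TP10K in LPLC1. LC4 had 3.69 ± 0.191, 2.91 ± 0.135 and 2.74 ± 0.293 TP10K. The values of LPLC2 and LPLC1 overlapped at every stage, while every LC4 cross at 72 h APF (2.76 to 3.08 TP10K) lay below every cross of LPLC2 (5.18 to 5.82 TP10K) and LPLC1 (5.02 to 5.93 TP10K). At that stage the log2 fold change came to 0.85 (SE 0.07, edgeR adjusted p = 2.4e-15) for LPLC2 over LC4 and 0.94 (SE 0.07, adjusted p = 8.43e-17) for LPLC1 over LC4. At 96 h APF it was 0.37 (adjusted p = 2.33e-05) for LPLC2 over LC4 and 0.20 (adjusted p = 0.0276) for LPLC1 over LC4, the second being lost without strain 399, 535, 799 or 805 (adjusted p = 0.0586 to 0.0847). At 48 h APF LPLC1 exceeded LC4 by 0.22 (adjusted p = 0.00335). LPLC2 over LC4 gave 0.14 (adjusted p = 0.0544), which passed without strain 320, 555 or 799 and with the DGRP strain as a block (adjusted p = 0.0369). For LPLC2 over LPLC1 it was -0.08, -0.10 and 0.17 at the 3 stages (edgeR adjusted p = 0.300, 0.208 and 0.0517), and the difference at 96 h APF passed without strain 399 or 555 (adjusted p = 0.0440 and 0.0414) and with the DGRP strain as a block (adjusted p = 0.0254). From 48 to 72 h APF dpr14 rose in LPLC2 by 0.45 (adjusted p = 2.79e-09) and in LPLC1 by 0.47 (adjusted p = 2.24e-09) and fell in LC4 by 0.25 (adjusted p = 0.0018), and the differences of LPLC2 and of LPLC1 from LC4 in this change, 0.70 and 0.72, passed the test (adjusted p = 1.97e-08 and 2.36e-08). From 72 to 96 h APF it fell in LPLC2 by 0.67 and in LPLC1 by 0.94 on the log2 scale (adjusted p = 1.72e-13 and 7.55e-18). The fall in LC4 of 0.20 (adjusted p = 0.0321) was lost without strain 320, 399, 799 or 805, with adjusted p-values of 0.0598 to 0.167. No cross with strain 320 was made for LC4 or at 48 h APF, and none with 555 at 96 h APF. Leaving these strains out acts there only through the fit and adjustment shared by all groups.

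dpr18, the least abundant of the 5 Dpr genes in most groups, was low in LPLC2 at 48 h APF. The 6 LPLC2 crosses lay between 0.498 and 0.530 TP10K, below all LPLC1 crosses (0.826 to 1.51 TP10K) and all LC4 crosses (0.711 to 1.37 TP10K). The log2 fold change was -1.09 (SE 0.12, edgeR adjusted p = 6.3e-11) for LPLC2 over LPLC1 and -1.27 (SE 0.13, adjusted p = 1.67e-12) for LPLC2 over LC4. It then rose in LPLC2 by 1.02 (SE 0.12, adjusted p = 7.83e-11), to 1.01 ± 0.108 TP10K at 72 h APF, against 1.32 ± 0.159 TP10K in LPLC1 and 1.06 ± 0.0914 TP10K in LC4. LPLC2 remained lower than LPLC1 at this stage, the difference being -0.44 on the log2 scale (SE 0.12, adjusted p = 0.00179). From 72 to 96 h APF dpr18 fell in all 3 types, by 0.83 in LPLC2, 1.35 in LPLC1 and 0.86 in LC4 on the log2 scale (adjusted p = 3.47e-07, 6.17e-11 and 1.24e-05). At 96 h APF no pair of these 3 types differed beyond the spread between crosses. X cells, which entered no test, had 0.600 TP10K in the median cell at 96 h APF. The medians were 0.487 TP10K in LPLC2, 0.443 TP10K in LPLC1 and 0.377 TP10K in LC4. The rise of dpr18 in LPLC1 from 48 to 72 h APF (0.37, adjusted p = 0.00463) rested on the late crosses, since it was 0.78 in these and -0.07 in the early ones. The call was lost without strain 799 or 805 (0.22 each, adjusted p = 0.137 and 0.146).

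dpr19 had a narrow range over types and stages and, among the 3 named types, was highest in LPLC2 at 72 h APF. X cells were not lower at that stage, with 2.15 TP10K in the median cell against 1.81 TP10K in LPLC2. LPLC2 had 1.30 ± 0.0478, 1.94 ± 0.124 and 1.58 ± 0.113 TP10K at 48, 72 and 96 h APF, LPLC1 had 1.44 ± 0.167, 1.51 ± 0.111 and 1.29 ± 0.166 TP10K, and LC4 had 1.14 ± 0.0796, 1.25 ± 0.0557 and 1.07 ± 0.0958 TP10K. At 48 h APF LPLC2 differed from neither type (adjusted p = 0.186 and 0.190). All LPLC2 crosses at 72 h APF, from 1.81 to 2.14 TP10K, exceeded all LPLC1 crosses (1.39 to 1.71 TP10K) and LC4 crosses (1.18 to 1.31 TP10K), with log2 fold changes of 0.29 (SE 0.07, edgeR adjusted p = 0.00066) and 0.56 (SE 0.08, adjusted p = 2.03e-08). The rise from 48 to 72 h APF was 0.63 in LPLC2 (SE 0.07, adjusted p = 1.63e-11) and exceeded that in LPLC1 by 0.41 (adjusted p = 0.0018) and that in LC4 by 0.45 (adjusted p = 0.00104). The first was lost in the late crosses alone (0.32, adjusted p = 0.140) and the second in the early ones (0.42, adjusted p = 0.0682). The rise in LPLC1 of 0.21 (adjusted p = 0.00794) was lost without strain 320, 730, 799 or 805, with adjusted p-values of 0.0629 to 0.123.

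dpr20 marked LPLC2 at 48 h APF together with dpr13, and its difference from LPLC1 closed later from the LPLC1 side. LPLC2 crosses at 48 h APF with strains 399, 535, 555, 730, 799 and 805 had 3.27, 3.05, 2.74, 1.97, 2.28 and 2.60 TP10K of dpr20. In LPLC1 these strains had 0.756, 1.22, 0.851, 0.335, 0.535 and 0.324 TP10K, and in LC4 1.83, 1.63, 1.45, 1.65, 1.22 and 1.34 TP10K. The 3 types did not overlap, although the LPLC1 cross with strain 535 came close to the lowest LC4 cross. The log2 fold change was 2.03 (SE 0.18, edgeR adjusted p = 1.63e-13) for LPLC2 over LPLC1, 0.78 (SE 0.18, adjusted p = 0.000284) for LPLC2 over LC4 and -1.25 (SE 0.20, adjusted p = 7.11e-07) for LPLC1 over LC4.

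In LPLC1 dpr20 then rose by 1.54 on the log2 scale to 72 h APF (SE 0.19, adjusted p = 4.54e-10), where it had 1.75 ± 0.134 TP10K, and by a further 0.53 to 96 h APF (SE 0.19, adjusted p = 0.0159), where it had 3.02 ± 0.658 TP10K. The second step was lost without strain 799 (0.50, adjusted p = 0.0551) and in the early crosses alone (0.30). In LPLC2 the means stayed at 2.65 ± 0.479, 2.94 ± 0.445 and 2.50 ± 0.326 TP10K, and in LC4 they were 1.52 ± 0.224, 1.58 ± 0.0857 and 2.03 ± 0.564 TP10K, with no step past the threshold in either type. LPLC2 still exceeded LPLC1 at 72 h APF, by 0.68 (SE 0.17, adjusted p = 0.00112), and at 96 h APF the difference was -0.22 (SE 0.19, adjusted p = 0.437).

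Read over all comparisons, the 6 genes were called in 34 of 54 tests between types, 25 of them higher in the type named first. The calls have to be read against all 7011 genes tested. For LPLC2 over LPLC1, 3, 5 and 3 of the 6 members were called at 48, 72 and 96 h APF, where 33.6%, 35.4% and 26.5% of all genes were. For LPLC2 over LC4 the members called were 4, 5 and 4 of 6 (52.4%, 58.7% and 49.6% of all genes), and for LPLC1 over LC4 they were 5, 4 and 1 of 6 (37.5%, 50.0% and 37.9%). Between stages 26 of 36 tests were called. From 48 to 72 h APF these were 5 of 6 members in LPLC2, 6 of 6 in LPLC1 and 3 of 6 in LC4, against 72.0%, 63.5% and 61.9% of all genes, and from 72 to 96 h APF 4, 5 and 3 of 6, against 54.5%, 48.7% and 45.9%. A change over time that differed between types was called in 19 of 36 tests. Between 48 and 72 h APF it was called for 5 of 6 members in each pair of types, against 15.9% (LPLC2 over LPLC1), 32.3% (LPLC2 over LC4) and 22.3% (LPLC1 over LC4) of all genes. Between 72 and 96 h APF the members called were 2, 1 and 1 of 6, against 11.2%, 26.3% and 16.6% of all genes.

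The other 26 DIP and Dpr genes, of which 24 had enough counts, are given for comparison. For LPLC2 over LPLC1 7 rose and 12 fell at 48 h APF, with a median log2 fold change of -0.45, 6 rose and 12 fell at 72 h APF (median -0.48) and 6 rose and 10 fell at 96 h APF (median -0.65). The medians of the 6 members for the same pair were -0.08, 0.10 and 0.12. From 48 to 72 h APF 14 of the 24 rose and 4 fell in LPLC2, 10 rose and 5 fell in LPLC1, and 9 rose and 8 fell in LC4. From 72 to 96 h APF 1 rose and 19 fell in LPLC2, 1 rose and 16 fell in LPLC1, and 0 rose and 17 fell in LC4, and among the 6 members 0 rose and 4 fell in LPLC2, 1 rose and 4 fell in LPLC1 and 0 rose and 3 fell in LC4.

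The summed level of the 5 Dpr partners shows how the make-up of the group changed. It was 15.5 ± 0.762, 15.8 and 12.6 TP10K in LPLC2 at 48, 72 and 96 h APF, 8.74 ± 1.14, 19.1 and 16 TP10K in LPLC1, and 9.21 ± 0.703, 14.8 and 14.4 TP10K in LC4. At 48 h APF dpr13 made up 44.0% of the sum in LPLC2, 11.5% in LPLC1 and 18.0% in LC4, and dpr14 was the leading partner in LPLC1 (51.9%) and LC4 (40.2%). At 72 h APF dpr13 made up 28.0% of the sum in LPLC2, where dpr14 now led with 34.8%, but 46.4% in LPLC1 and 54.1% in LC4. X cells had 37.1%, 32.2% and 30.1% dpr13 and a sum of 11, 13.2 and 8.78 TP10K. Most cells held several partners at once. Cells were thinned to 10000 UMIs for this count, and shallower cells were left out. Of the 5 Dpr genes a mean of 3.81, 4.28 and 3.88 had at least 1 UMI in an LPLC2 cell, 3.33, 4.25 and 3.98 in an LPLC1 cell and 3.83, 4.06 and 3.68 in an LC4 cell. These numbers hold for that depth only.

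**Figure D3:**
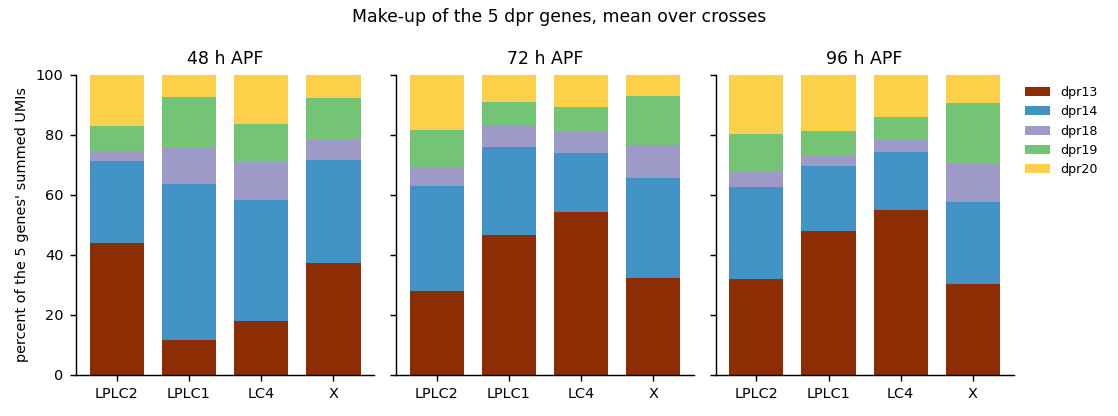
Make-up of the summed UMIs of dpr13, dpr14, dpr18, dpr19 and dpr20 as percent of the sum (y axis), as mean over crosses, in LPLC2, LPLC1, LC4 and X at 3 stages. The dpr13 segment is 44.0% in LPLC2 and 11.5% in LPLC1 at 48 h, and 28.0% in LPLC2 and 46.4% in LPLC1 at 72 h.

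Cells of a type also differed from each other. The spread over cells was measured in each cross as the squared coefficient of variation (CV) beyond Poisson counting error, which is 0 when cells differ by counting alone. For dpr13 it was 0.907 ± 0.124 in LPLC2, 0.563 ± 0.219 in LPLC1 and 0.106 ± 0.105 in LC4 at 48 h APF (SD, n = 6 each). LPLC2 crosses lay between 0.757 and 1.11, LPLC1 crosses between 0.313 and 0.860, and LC4 crosses between -0.0474 and 0.274. In LPLC2 at 48 h APF this placed dpr13 above 97.6% of 2362 genes at 0.5 TP10K or more, in LPLC1 above 95.4% and in LC4 above 74.6%. At 72 h APF the spread of dpr13 was 0.252 ± 0.0524 in LPLC2, 0.0912 ± 0.0336 in LPLC1 and 0.137 ± 0.0171 in LC4, and at 96 h APF 0.441 ± 0.0589, 0.202 ± 0.0718 and 0.219 ± 0.0284. In X cells it was 0.753, 0.756 and 0.961 at the 3 stages.

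In an exact two-sided permutation test over crosses with Benjamini-Hochberg adjustment over all genes, the spread of dpr13 was larger in LPLC2 than in LC4 at 48 h APF (difference 0.80, p = 0.00216, adjusted p = 0.0400) and larger in LPLC2 than in LPLC1 at 72 h APF (difference 0.161, p = 0.00216, adjusted p = 0.0217), where 5.41% and 13.2% of all genes were called. The smallest p that 6 crosses against 6 allow is 0.00216. With cells thinned to 10000 UMIs the call against LPLC1 at 72 h APF held (0.227, adjusted p = 0.0483), whereas that against LC4 at 48 h APF was lost (0.816, adjusted p = 0.0853). LPLC2 and LPLC1 at 48 h APF differed by 0.344, with p = 0.013 and an adjusted p of 0.117 in the same permutation test, and LPLC1 and LC4 by 0.456 without overlap of their crosses, with an adjusted p of 0.0540. No gene at all was called in 5 of the 9 comparisons, namely LPLC1 over LC4 at 48 and 72 h APF and all pairs at 96 h APF, with 301, 448, 337, 401 and 233 genes at an unadjusted p under 0.05. With any cross left out the smallest possible p rises to 0.00794 or more and no gene is called.

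dpr14 was spread more evenly over cells, with 0.0572 ± 0.0114 in LPLC2 and 0.0200 ± 0.0126 in LPLC1 at 48 h APF, and the difference passed the permutation test (0.0372, p = 0.00216, adjusted p = 0.0401), where 5.40% of all genes were called. At 72 h APF its spread in LPLC2, 0.0929 ± 0.0146, exceeded that in LPLC1 by 0.0567 (permutation p = 0.00216, adjusted p = 0.0217) and that in LC4 by 0.0553 (permutation p = 0.00476, adjusted p = 0.0384), where 13.2% and 12.4% of all genes were called. All 3 calls of dpr14 were lost with cells thinned to 10000 UMIs (adjusted p = 0.169, 0.414 and 0.347). dpr19 came close to counting error alone except in LC4 at 96 h APF, with 0.0213, 0.0174 and 0.0490 in LPLC2, 0.0144, 0.0241 and 0.0488 in LPLC1 and -0.00318, -0.0266 and 0.116 in LC4. dpr20 lay between, with 0.232 ± 0.0369 in LPLC2 and 0.398 ± 0.169 in LPLC1 at 48 h APF, and dpr18 had 0.283 ± 0.217 and 0.290 ± 0.182. None of the differences of dpr18, dpr19 and dpr20 passed. The spread of the 5 genes' sum over LPLC2 cells was 0.146 ± 0.0174 at 48 h APF and 0.0410 ± 0.00308 with dpr13 left out of the sum.

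Within a type, the members were compared between the ends of the main axis of variation. A score along the first principal component (PC1) of 500 variable genes was made for each cell with loadings learned in the other crosses, and genes were divided at random in 2 sets, each gene being tested on the score from the other set, so that no gene was tested on itself. For each cross cells were ranked by score, and the UMIs of the third at the top (high end) and of the third at the bottom (low end) were added up and compared in edgeR with the cross as a block. PC1 has no sign of its own, and it was turned so that beat-VI in LPLC2, DIP-kappa in LPLC1 and the number of UMIs in LC4 increase towards the high end, so that ends do not correspond between types. Members called in LPLC2 were 4 of 6, 4 of 6 and 5 of 5 tested at 48, 72 and 96 h APF, against 29.2%, 51.7% and 55.3% of all genes. In LPLC1 they were 3, 2 and 2 of 5 tested, against 21.8%, 31.5% and 33.3%, and in LC4 3, 2 and 1 of 5, against 62.3%, 30.6% and 53.9%. DIP-epsilon had enough counts for this test in LPLC2 at 48 and 72 h APF only.

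In LPLC2 dpr20 ran against dpr13. At the high end, where dpr13 had 11.9 ± 1.26 TP10K at 48 h APF against 2.15 ± 0.575 TP10K at the low end, dpr20 had 1.94 ± 0.391 TP10K against 3.31 ± 0.527 TP10K at the low end. It was lower at the high end in 6 of 6 crosses at each stage, with log2 fold changes of high over low end of -0.74 (SE 0.07, edgeR adjusted p = 2.97e-08) at 48 h APF, -0.86 (SE 0.07, adjusted p = 2.16e-10) at 72 h APF and -0.40 (SE 0.11, adjusted p = 0.00175) at 96 h APF. For dpr13 the same contrast gave 2.52, 1.46 and 2.39. By an interaction test added after these values had been seen, 2 members changed their contrast from 48 to 72 h APF, dpr13 and dpr18 (28.1% of all genes), and 3 did so from 72 to 96 h APF, dpr13, dpr14 and dpr20 (18.5%). The call of dpr18 was lost without any of strains 320, 399, 535, 730, 799 and 805, that of dpr14 without any of 399, 535, 730, 799 and 805, and that of dpr20 without 320, 399 or 535 (adjusted p = 0.0534 to 0.347).

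DIP-epsilon ran with dpr13 in LPLC2. At 48 h APF it had 0.158 ± 0.0805 TP10K at the high end and 0.0656 ± 0.0265 TP10K at the low end, and at 72 h APF 0.376 ± 0.125 TP10K at the high end and 0.219 ± 0.0713 TP10K at the low end. It was higher at the high end in 5 of 6 crosses at both stages, with log2 fold changes of 1.35 (SE 0.25, edgeR adjusted p = 0.000201) and 0.85 (SE 0.18, adjusted p = 0.0003). At 96 h APF, where it was not tested, it had 0.277 ± 0.121 TP10K at the high end and 0.115 ± 0.0888 TP10K at the low end, again higher in 5 of 6 crosses. In LPLC1 at 48 h APF, also not tested, it was lower at the high end in 6 of 6 crosses, with 0.0357 ± 0.0272 TP10K there and 0.184 ± 0.0665 TP10K at the low end.

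The remaining partners differed less between the ends of LPLC2. dpr19 was higher at the high end by 0.27 at 72 h APF (SE 0.08, edgeR adjusted p = 0.00471) and 0.44 at 96 h APF (SE 0.13, adjusted p = 0.00308), in 6 of 6 crosses each. dpr18 was higher by 0.58 at 96 h APF (SE 0.19, adjusted p = 0.00948), a call that was lost without strain 805 (0.41, adjusted p = 0.0827). dpr14 was lower by 0.17 at 48 h APF (adjusted p = 0.0076, in 6 of 6 crosses) and by 0.23 at 96 h APF (adjusted p = 0.0377), the second call being lost without any of strains 399, 535, 730, 799 and 805 (adjusted p = 0.0557 to 0.17).

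In LPLC1 the gradient of dpr13 turned round between stages. At 48 h APF the high end had 1.53 ± 0.379 TP10K and the low end 0.786 ± 0.387 TP10K, higher at the high end in 6 of 6 crosses (1.01, SE 0.13, edgeR adjusted p = 1.45e-06). At 72 h APF the high end had 7.36 ± 0.814 TP10K and the low end 10.1 ± 0.715 TP10K, lower at the high end in 6 of 6 crosses (-0.46, SE 0.06, adjusted p = 8.14e-07), and at 96 h APF 4.88 ± 0.414 TP10K and 8.80 ± 1.09 TP10K, lower in 5 of 5 crosses (-0.84, SE 0.12, adjusted p = 9.68e-06). The difference of the contrast at 72 h APF from that at 48 h APF was -1.48 (adjusted p = 6.95e-09 by edgeR), a test added after the values along PC1 had been seen, with 7.26% of all genes called, and that of 96 h APF from 72 h APF was -0.43 (adjusted p = 0.0441), with 8.09% called. That call at 96 h APF was lost without strain 399, 535, 730 or 805. The axis of each stage was computed from that stage alone, with DIP-kappa fixing its sign, so that the ends of different stages need not hold the same kinds of cell. In LPLC1 dpr20 was higher at the high end at 48 h APF (0.73, SE 0.14, adjusted p = 0.000515) and 96 h APF (0.70, SE 0.18, adjusted p = 0.00471), and dpr18 was lower there at 72 h APF (-0.35, SE 0.09, adjusted p = 0.00535). The call of dpr18 at 48 h APF (-0.31, adjusted p = 0.0347) was lost without strain 399, 555, 730 or 805.

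PC1 was related to the number of UMIs of a cell to a varying degree, most in LC4 at 96 h APF and least in LPLC1 at 48 h APF. The mean correlation within crosses (Spearman's rho) was 0.12, 0.21 and -0.07 in LPLC2 at 48, 72 and 96 h APF, 0.0048, 0.07 and -0.16 in LPLC1 and 0.27, 0.19 and 0.67 in LC4. With cells thinned to 10000 UMIs, 16 of the 26 calls of members along PC1 held, with 44 tests having enough counts. By the test of DESeq2 18 of the 26 held. For single calls along PC1 only losses on leaving out a strain are named. Calls without such a loss need not hold in thinned cells or with DESeq2. For LC4 at 72 h APF, PC1 of the thinned cells had a rho of 0.563 with PC1 of the cells as deposited. The part of depth in the single contrasts was not tested further. In LC4 dpr13 was lower at the high end at 48 h APF (-0.71, SE 0.14, edgeR adjusted p = 5.59e-06), with 1.29 ± 0.382 TP10K at the high end and 1.81 ± 0.370 TP10K at the low end. dpr20 was lower by 0.66 at 48 h APF (adjusted p = 1.64e-05), and dpr14 was lower by 0.29 at 72 h APF (adjusted p = 0.000283) and by 0.53 at 96 h APF (adjusted p = 0.00202), in 4 of 4 crosses each. The calls of dpr19 at 48 h APF (-0.36, adjusted p = 0.032) and of dpr20 at 72 h APF (-0.21, adjusted p = 0.0338) were lost on leaving out single strains, the first without 535, 730 or 805 (adjusted p up to 0.331) and the second without 399, 799 or 805 (adjusted p up to 0.273).

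**Figure D4:**
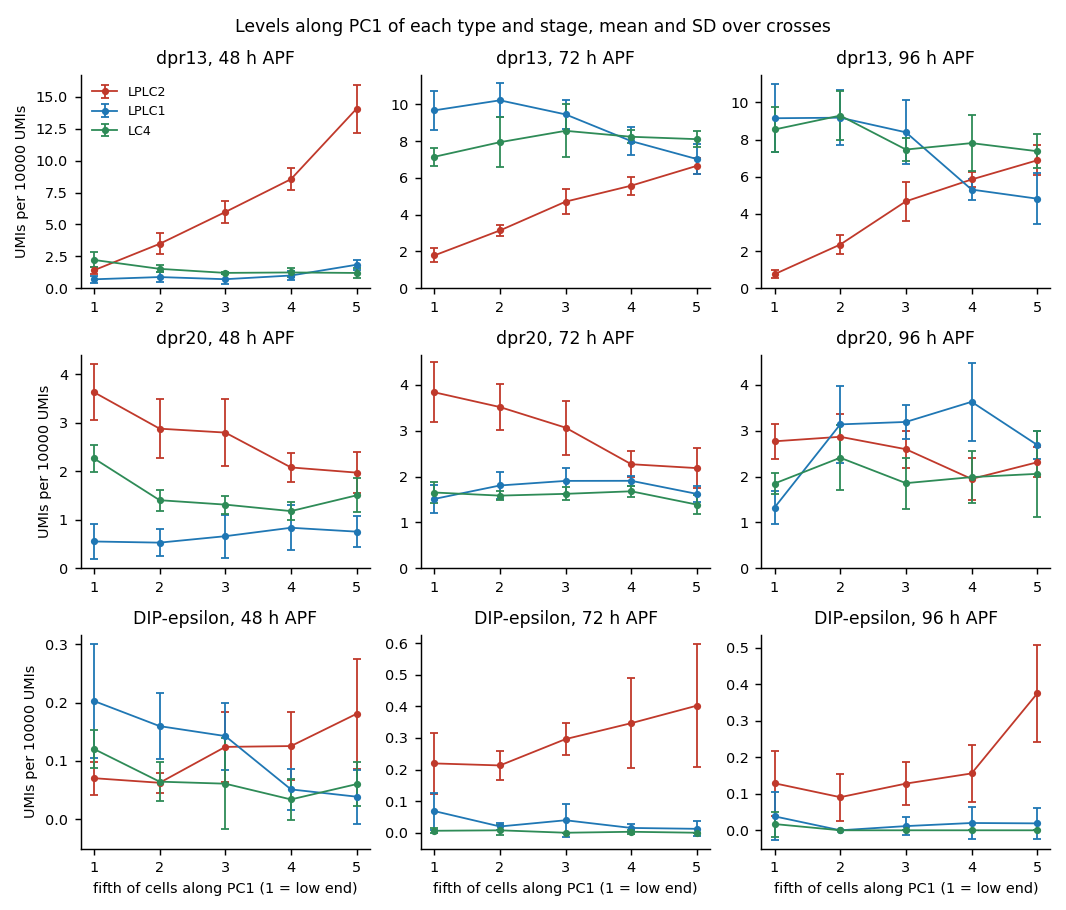
Levels of dpr13, dpr20 and DIP-epsilon in UMIs per 10000 UMIs (y axes) in 5 equal groups of cells along PC1 (x axis, 1 at the low end) of LPLC2 (red), LPLC1 (blue) and LC4 (green) at 3 stages, as mean and SD over crosses. In LPLC2 dpr20 declines where dpr13 climbs at 48 and 72 h, and in LPLC1 the dpr13 line slopes upwards at 48 h and downwards at 72 and 96 h.

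Pairs of genes over single cells showed these relations in part, given as a description because cells of a library share depth and composition. Within LPLC2 crosses, Spearman's rho of dpr13 with dpr20 averaged -0.177 at 48 h APF (1442 cells) and -0.261 at 72 h APF (994 cells), negative in 6 of 6 crosses at both stages, and -0.048 at 96 h APF (474 cells), where 3 of 6 crosses were positive. For dpr20 with the UMIs of a cell it averaged -0.143, -0.219 and -0.109. For dpr13 with dpr14 it averaged -0.255, -0.007 and -0.202 at the 3 stages. For DIP-epsilon with dpr13 it was 0.168, 0.122 and 0.149, positive in 5 of 6 crosses at each stage, with 0.141, 0.158 and 0.063 for DIP-epsilon with the UMIs of a cell. DIP-epsilon and dpr20, which ran in opposite directions along PC1, had a mean of 0.050 at 48 h APF, positive in 5 of 6 crosses. In LPLC1 the mean of dpr13 with dpr20 was 0.113, 0.041 and -0.004, although at 96 h APF they ran in opposite directions along PC1.

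The early and late crosses differ in both age and strain, so that age and strain cannot be told apart. At 48 h APF 2 or 3 of the 5 Dpr genes did not overlap between them, at shares of all genes that were also large. In LPLC1 dpr20 had 0.756 to 1.22 TP10K in the early crosses and 0.324 to 0.535 TP10K in the late crosses, dpr13 had 0.942 to 1.70 TP10K and 0.817 to 0.831 TP10K, and dpr18 had 1.20 to 1.51 TP10K and 0.826 to 0.990 TP10K. These are 3 of the 5 Dpr genes, where 30.1% of all genes at 0.5 TP10K or more did not overlap. In LPLC2 it was 2 of 5 (25.8% of genes), dpr20 with 2.74 to 3.27 TP10K in the early and 1.97 to 2.60 TP10K in the late crosses, and dpr18 with 0.527 to 0.530 TP10K and 0.498 to 0.502 TP10K. In LC4 it was again 2 of 5 (31.8% of genes), dpr13 with 1.78 to 2.41 TP10K in the early and 1.17 to 1.46 TP10K in the late crosses, and dpr14 with 3.61 to 4.01 TP10K and 3.49 to 3.61 TP10K. For dpr14 this is close to a tie, with 3.61057 TP10K in the lowest early and 3.61035 TP10K in the highest late cross. The early LC4 crosses with strains 399 and 555 held only 14 and 12 cells. DIP-epsilon did not overlap in LPLC2, with 0.137 to 0.153 TP10K in the early and 0.0767 to 0.0950 TP10K in the late crosses. It overlapped in LPLC1 (0.0887 to 0.145 and 0.126 to 0.141 TP10K) and in LC4. With 3 crosses against 3 no exact test can go below p = 0.1, and none was made. This comparison was added after the data had been seen.

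The direction was not the same at later stages. In LPLC2 at 72 h APF dpr20 was lower in the early crosses, with 2.19 to 3.09 TP10K against 3.12 to 3.46 TP10K in the late crosses (1 of 5 Dpr genes, 29.6% of all genes). In LPLC1 at 96 h APF it had 2.39 to 2.86 TP10K in the early and 3.06 to 4.22 TP10K in the late crosses, beside dpr14 and dpr19, which were higher in the early crosses (3 of 5, 24.0% of all genes). In LPLC1 at 72 h APF it was 1 of 5 (17.4%), in LPLC2 at 96 h APF 2 of 5 (26.1%), and in LC4, with 2 crosses against 2, it was 2 of 5 at 72 h APF (45.7%) and 3 of 5 at 96 h APF (41.9%).

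No member passed the test for a difference between DGRP strains across types and stages. In an F-test over strains with type and stage in the model, 0 of 6 members were called by edgeR's quasi-likelihood test, against 12.8% of all genes, and DESeq2's likelihood ratio test called 0 as well, while 2 members had an unadjusted p under 0.05. The adjusted p was 0.497 for dpr20, the member on the third chromosome, and 0.0813 for dpr13, whose coefficient for strain 555 was 0.46 above the mean of the strains on the log2 scale. Without LPLC2 in the model dpr13 was called.

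By the likeness of their 9 means over types and stages (Pearson's r of log2(TP10K + 0.1)), the genes most like each member among about 3288 were CG5946 (0.947) and tna (0.944) for DIP-epsilon, CG33229 (0.833) and sima (0.803) for dpr13, and Sap-r (0.961) and Eps-15 (0.942) for dpr14. They were CR45315 (0.921) and Tsp42Ej (0.917) for dpr18, CG12025 (0.963) and brv3 (0.941) for dpr19, and CG31324 (0.917) and mt:lrRNA (0.876) for dpr20. Among the members, r with DIP-epsilon was 0.801 for dpr19, 0.643 for dpr14, 0.139 for dpr20, 0.0019 for dpr18 and -0.427 for dpr13.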

How the data were processed

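UMI counts per gene and cell were deposited by the authors with an annotation of cells. Per the submitters' processing notes they were made with Cell Ranger on dm6 and handled in Seurat 5.0.1. Crosses were told apart by their DGRP genotypes, and 0 cells called doublets were among the annotated cells, which the authors also deposited with the percent of mitochondrial UMIs. Of the 2595, 2369 and 1039 annotated cells at 48, 72 and 96 h APF, 2286, 2043 and 858 lay within the filter the methods state, and 307, 322 and 175 lay below its minimum of 10000 UMIs, down to 5003, 5024 and 5005 UMIs.

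UMIs were summed over the cells of a cross, type and stage (at least 10 cells) and tested over all genes with edgeR 4.0.16 in R 4.3.3 (TMM, filterByExpr, glmQLFit and glmQLFTest), with Benjamini-Hochberg adjustment and a threshold of 0.05 on the adjusted p. Types, stages and their interaction were contrasts of 1 fit, strains an F-test in it, and PC1 contrasts had the cross as a block. X cells entered no test. PC1 came from 500 variable genes (Seurat 5.3.0), scored with 2 random sets of genes. Spread over cells was tested by exact permutation of crosses for genes at or above 0.5 TP10K, and likeness used a pseudocount of 0.1. Intervals are exact binomial or counting intervals at 95% and, like the limits of 3 counts for a count of 0, cover counting error only. P-values measure the spread between crosses.

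Alternatives used DESeq2 1.42.0, thinned or filtered cells, other filters, left-out strains and the DGRP strain as a block. The strain pairs the sums of different types: over 46 pairs of sums of a strain the correlation of deviations from group means had a median of 0.21 (0.048 to 0.473), with 40 over 0.1. Further tools were limma 3.58.1, Matrix 1.6.5 and data.table (version 1.17.8), and Python 3.11.15 with numpy 2.4.6, pandas 2.3.3, scipy 1.17.1 and matplotlib 3.10.9. The tests were tested on simulated data. The genes named are the 6 members, DIP-zeta, the other DIP and Dpr genes as counts, and for each member the 2 genes most like it. Members, gene lists and markers were chosen with earlier results of these data known.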

Additional observations from a re-analysis of the deposited data

Results flagged for a closer look

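In 9 of 72 groups of crosses, 1 cross stood apart from the rest of its group, where chance gives about 1 group in 20. DIP-epsilon had 1.27 TP10K in X cells of strain 320 at 72 h APF (other crosses 0.0700 to 0.494 TP10K) and 0.00763 TP10K, from 1 UMI, in LC4 of strain 805 at 96 h APF (other crosses 0). dpr13 had 1.70 TP10K in LPLC1 of strain 555 at 48 h APF (others 0.817 to 1.03 TP10K), 5.29 TP10K in LPLC2 of strain 399 at 48 h APF (others 6.74 to 7.41 TP10K), 8.78 TP10K in LC4 of strain 399 at 72 h APF (others 7.74 to 7.83 TP10K) and 3.90 TP10K in LPLC2 of strain 799 at 72 h APF (others 4.46 to 4.65 TP10K). dpr14 had 2.74 TP10K in X cells of strain 799 at 72 h APF (others 4.66 to 5.12 TP10K), dpr18 had 0.711 TP10K in LC4 of strain 555 at 48 h APF (others 1.14 to 1.37 TP10K), and dpr20 had 1.45 TP10K in X cells of strain 535 at 48 h APF (others 0.635 to 0.757 TP10K).

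The change from 48 to 72 h APF differed between types in 15 tests of members by edgeR's quasi-likelihood test. For LPLC2 minus LPLC1 the differences in log2 fold change were 3.40 for DIP-epsilon, -3.80 for dpr13, -1.34 for dpr20, 0.65 for dpr18 and 0.41 for dpr19. For LPLC2 minus LC4 they were 5.76 for DIP-epsilon, -2.98 for dpr13, 1.13 for dpr18, 0.70 for dpr14 and 0.45 for dpr19. For LPLC1 minus LC4 they were 2.37 for DIP-epsilon, 1.37 for dpr20, 0.82 for dpr13, 0.72 for dpr14 and 0.48 for dpr18. Both values of DIP-epsilon against LC4 rest on 4 UMIs in LC4 at 72 h APF. The value of dpr18 for LPLC1 minus LC4 was lost without any of strains 320, 399, 535, 730, 799 and 805 (adjusted p = 0.0726 to 0.283), that of DIP-epsilon for the same pair without strain 805 and that of dpr18 for LPLC2 minus LPLC1 without strain 535. With the early crosses alone the values of DIP-epsilon (1.54, adjusted p = 0.401) and dpr18 (0.09, adjusted p = 0.886) for LPLC1 minus LC4 and of dpr19 for LPLC2 minus LC4 (0.42, adjusted p = 0.0682) were lost, and with the late crosses alone those of dpr18 (0.31, adjusted p = 0.248) and dpr19 (0.32, adjusted p = 0.140) for LPLC2 minus LPLC1. The value of DIP-epsilon for LPLC1 minus LC4 was also lost with cells thinned to 10000 UMIs (3.47, adjusted p = 0.0507).

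The change from 72 to 96 h APF differed between types in 4 tests. For dpr14 the difference was 0.27 for LPLC2 minus LPLC1, -0.48 for LPLC2 minus LC4 and -0.74 for LPLC1 minus LC4, and for dpr20 it was -0.91 for LPLC2 minus LPLC1. The last was lost without strain 799 (-0.88, adjusted p = 0.0562) and in the early crosses alone (-0.62, adjusted p = 0.0723), and that of dpr14 for LPLC2 minus LPLC1 without any of strains 320, 399, 535, 730, 799 and 805 (adjusted p = 0.0600 to 0.490) and in the early or the late crosses alone (adjusted p = 0.310 and 0.534).

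The contrast between the ends of PC1 differed between stages in 7 tests, added after the values along PC1 had been seen. In LPLC2 the difference of 72 minus 48 h APF was -1.05 for dpr13 and 0.39 for dpr18, and that of 96 minus 72 h APF was 0.87 for dpr13, 0.40 for dpr20 and -0.27 for dpr14, where 28.1% and 18.5% of all genes were called. In LPLC1 the difference for dpr13 was -1.48 for 72 minus 48 h APF and -0.43 for 96 minus 72 h APF, where 7.26% and 8.09% of all genes were called.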

How the results depend on the processing

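Depth limits what can be said of DIP-epsilon in LPLC1 and LC4 at 96 h APF, with 6 and 1 UMIs, and in LC4 at 72 h APF, with 4 UMIs. Over the alternatives, 30 to 36 member tests were called between types, 22 to 29 between stages, 14 to 19 for type by stage and 17 to 28 along PC1, and with 1 strain left out the ranges were 31 to 36, 24 to 28, 16 to 20 and 21 to 26. With the DGRP strain as a replicate block 36 tests were called between types, 29 between stages and 19 for type by stage, and without the block 21 were called along PC1. With cells thinned to 10000 UMIs, 17 member tests were called along PC1, 4 for PC1 by stage and 1 for the spread of dpr13 (LPLC2 over LPLC1 at 72 h APF), and PC1 by stage also gave 4 with the cells above and below the middle of PC1 and 3 to 7 with 1 strain left out. Leaving out a strain gave 0 for the spread of dpr13, since too few permutations remain. Between strains, 2 members were called with no filter on low counts and 1 without LPLC2, and 0 with any 1 strain left out. The change of dpr18 in LPLC1 from 48 to 72 h APF turned to -0.068 in the early crosses alone, and the PC1 contrast of dpr13 in LC4 at 72 h APF turned to -0.41 in thinned cells. The cause was not tested.

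Of 558 counts of calls over all genes, 36 moved by more than 1.5 times. Along PC1 these were 483 to 1630 calls with DESeq2 in 7 contrasts (831 to 2465 by edgeR), 514 to 999 with thinned cells (831 to 1721), 1013 with the cells above and below the middle of PC1 (1599) and 623 without the block (967), and for PC1 by stage 241 to 955 with thinned cells (376 to 1539). Between strains there were 509 calls with thinned cells, 543 with 1 strain left out, 203 without LPLC1 and 291 without LPLC2, against 894. For type by stage there were 471 to 1005 calls with thinned cells (786 to 1566), 396 to 1436 in early crosses (786 to 2264), 372 to 1095 in late crosses (786 to 1843) and 511 to 775 with 1 strain left out (786 to 1164), and between types 1660 in early (2627) and 1111 in late crosses (1856). With DESeq2 size factors the share of calls that were higher became 51.2% against 61.4% for LPLC2 minus LPLC1 at 96 h APF, and for the change from 72 to 96 h APF 48.9% against 65.6% for LPLC2 minus LPLC1 and 47.8% against 57.9% for LPLC2 minus LC4. The early and late crosses were separated after the data had been seen.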
